A study of Homo sapiens with 30 samples.

Results

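Nascent transcription after 3 h of dexamethasone was compared with that of untreated cells in A549, a human lung adenocarcinoma line, by precision run-on sequencing (PRO-seq). The comparison used 4 of the 30 libraries in the series: 2 labelled untreated, replicates 1 and 2, and 2 treated with 100 nM dexamethasone (Dex) for 3 h, replicates 1 and 2. All genes of the deposited count table entered it, and 22919 of 58780 passed the filter on low counts. Drugs were applied in a final concentration of 0.01% DMSO, and about the same number of cells was treated per sample. The untreated libraries are labelled 15 min, so no 3 h vehicle group stood beside the 3 h treatment, and 3 h in culture cannot be told apart from 3 h of Dex. A549 is a single line, and the labels do not say whether replicates came from separate cultures. The p-values therefore measure the spread between libraries, which may be technical. The other libraries used here are 2 of Dex for 15 min, and the 8 that tested 3 h of Dex after 7 days of 1 µM GSK591 (an inhibitor of PRMT5) or 1 µM MS023 (an inhibitor of the type I arginine methyltransferases), each against 7 days of the same inhibitor alone. No other group entered a reported contrast, although all 30 libraries shared the estimate of the spread.

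Dexamethasone is a synthetic glucocorticoid. It binds the glucocorticoid receptor, a nuclear receptor held in the cytoplasm by chaperones, which then enters the nucleus, binds DNA at palindromic response elements, mostly far from promoters, and recruits coactivators. The receptor also lowers transcription of inflammatory genes driven by NF-kB and AP-1, and it raises several genes that limit its own signal. PRO-seq maps RNA polymerases that are engaged and able to extend RNA in a short run-on, so a gene's count follows polymerase density over the counted part of the gene and not the amount of mature RNA.

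The 4 libraries held 8995811 to 13069598 assigned reads, of which 69.2% to 76.0% lay on mitochondrial genes and 2770494 to 3314381 on nuclear genes. Values below are in CPM, the read count scaled to a common library size by edgeR's TMM factors. Across the 11021 genes that averaged 5 CPM or more in the 4 libraries, the log2 CPM of the 2 untreated replicates correlated at r = 0.978 and that of the 2 Dex replicates at r = 0.971, and untreated with Dex libraries at a mean r of 0.914, across genes, which are not independent replicates. The keratin genes KRT7, KRT8 and KRT18 and the aldo-keto reductase genes AKR1B10 and AKR1C1, abundant in this line, each had 732 or more counts in every library. Of the 10 markers of the line, KRT7, KRT8 and KRT18 were called higher, at log2 fold changes of 0.57, 0.93 and 0.61, and KRT19 lower, at -0.64, a call lost under total-count scaling, under DESeq2 and without 1 library, whichever of the 4 it was (adjusted p up to 0.16). The epithelial markers EPCAM and CDH1 were low, at 9 to 24 counts. CDKN2A, which this line lacks, had 1 count in 1 library. Of 18 markers of fibroblasts, endothelial cells and leukocytes none exceeded 37 counts, CD3D and LYZ were at 0, and none of the 7 tested was called. As the libraries are bulk, a change in fewer cells and a smaller change in every cell cannot be told apart.

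After 3 h of Dex, polymerase density was higher at 1400 genes and lower at 1010 (edgeR's quasi-likelihood test, Benjamini-Hochberg adjusted p below 0.05). The called genes made up 10.5% of the 22919 tested, 6.11% called higher and 4.41% called lower. Among the genes called higher the median log2 fold change was 0.87, and 566 exceeded 1, 169 exceeded 2 and 74 exceeded 3. Among those called lower the median was -0.83, with 387 beyond -1, 91 beyond -2 and 30 beyond -3. The untreated libraries held a median of 14.1 CPM per gene for genes called lower and 8.26 CPM for genes called higher. These are counts per gene, not divided by length, and the median gene length was 25.9 kb for genes called lower, 14.5 kb for those called higher and 17.1 kb for those not called. An exon of another gene overlapped 42.9% of the genes called higher, 47.5% of those called lower and 43.2% of those not called, and reads in such overlaps are uncertain. By annotated type, 1112 protein-coding genes were called higher and 771 lower of 14978 tested, and 217 and 181 of 5018 lncRNA genes. The balance of directions depended on scaling: with the total count as the only scaling, the median log2 fold change of all genes moved from -0.01 to 0.15, and 1031 genes were called higher and 228 lower, so that 81.9% of calls were higher against 58.1% with TMM scaling. DESeq2 called 1470 genes, 907 higher and 563 lower.

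**Figure D1:**
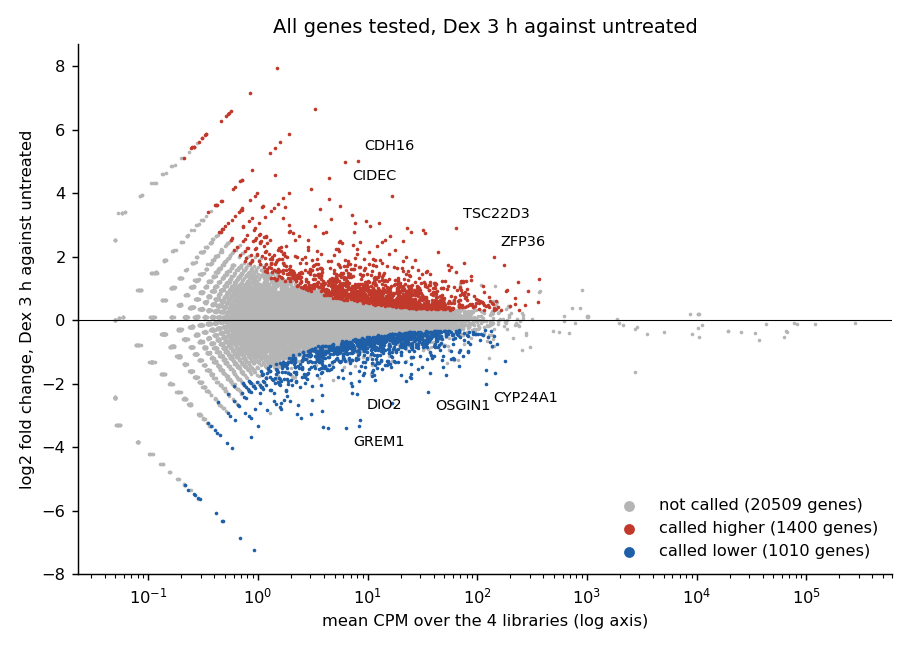
Each point is 1 of the 22919 genes tested, at its mean CPM over the 4 libraries (horizontal, log axis) and its log2 fold change after 3 h of Dex (vertical). The 1400 genes called higher and 1010 called lower lie above and below a band of uncalled genes that widens at low CPM; the diagonal lines at the left are genes with 0 counts in a group, whose fitted values are no bound on their change.

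The gene with the largest rise at a mean of 5 CPM or more was CDH16, which encodes a cadherin of kidney epithelium (chromosome 16, 66908122 to 66918984, GRCh38). It read 0.445 and 0.504 CPM in the untreated libraries and 15.1 and 16.2 CPM after Dex, a log2 fold change of 5.01 ± 0.31 (SE; adjusted p = 1.06e-17). CIDEC (chromosome 3, 9866711 to 9880254), whose product enlarges lipid droplets by fusion, rose from 0.222 and 0.504 to 11.7 and 12.6 CPM, or by 4.99 ± 0.38 (adjusted p = 8.68e-15). For both genes the untreated level rests on 2 to 5 counts per library. TFCP2L1 (chromosome 2, 121216587 to 121285207), a transcription factor of the grainyhead-related family, went from 1.78 and 2.32 to 28.2 and 34.7 CPM (3.92 ± 0.20; adjusted p = 8.22e-21). The carboxylesterase gene CES4A read 1.56 and 1.11 CPM untreated and 15.1 and 11.1 CPM after Dex (3.30 ± 0.31; adjusted p = 3.99e-11), and an exon of a gene on the opposite strand overlaps it. CDKN1C, coding for the cyclin-dependent kinase inhibitor p57, had the widest untreated pair of these genes, 3.11 and 0.907 CPM, and read 14.4 and 19.9 CPM after Dex (3.11 ± 0.34; adjusted p = 4.42e-07). As the rule for naming them required, both Dex libraries of each lay above both untreated libraries. On chromosome 16, RRAD (66921679 to 66925644), another of the 12 largest rises, lies between CDH16, on its own strand, and CES4A (66988589 to 67009758). Whether these neighbouring genes rose separately was not tested.

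The rest of the 12 largest rises were between 2.77 and 3.07 on the log2 scale. They include the orphan receptor gene GPR153, at 1.67 and 1.61 CPM untreated and 15.5 and 12.1 CPM after Dex. ANPEP (chromosome 15, 89784889 to 89815401) encodes the membrane peptidase aminopeptidase N and rose from 2.11 and 2.62 to 20.4 and 17.2 CPM. The receptor's co-chaperone FKBP5 (chromosome 6, 35573585 to 35728583), which lowers its affinity for hormone, read 5.56 and 5.24 and then 40.5 and 40.1 CPM, a log2 fold change of 2.90 ± 0.26 (adjusted p = 8.87e-08). TSC22D3 (GILZ; chromosome X, 107713221 to 107777342), which binds and restrains NF-kB and AP-1, rose from 13.5 and 16.9 to 114 and 112 CPM, by 2.89 ± 0.13 (adjusted p = 2.08e-22). Its 2 Dex libraries differed by less than its 2 untreated libraries. GSN, for the actin-severing protein gelsolin, read 8.79 and 7.15 and then 58.5 and 54.3 CPM. RRAD, a Ras-related GTPase gene, went from 1.45 and 2.32 to 12.2 and 14.3 CPM, and FGD4, whose product activates CDC42, from 6.23 and 6.55 to 45.3 and 41.8 CPM. Exons on the opposite strand overlap TSC22D3 and GSN.

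The largest fall among called protein-coding genes at a mean of 5 CPM or more was that of GREM1 (chromosome 15, 32717974 to 32745107), a secreted antagonist of bone morphogenetic proteins. It read 11.8 and 11.4 CPM in the untreated libraries and 1.17 and 0.977 CPM after Dex, a log2 fold change of -3.41 ± 0.29 (adjusted p = 8.07e-13). The lncRNA gene GREM1-AS1, on the other strand at the same locus, fell too, from 12.0 and 11.9 to 1.91 and 3.05 CPM. Since the use of strand in counting is not given in the sources used here, reads of this pair cannot be told apart. DIO2 (chromosome 14, 80197527 to 80387757), the deiodinase that makes active thyroid hormone inside cells, fell from 14.5 and 15.8 to 1.17 and 2.32 CPM, by 3.14 ± 0.27 on the log2 scale (adjusted p = 3.67e-13). INHBE, a subunit gene of the activin family, read 12.9 and 14.1 and then 3.30 and 1.95 CPM. OSGIN1 (chromosome 16, 83948282 to 83966332), a gene induced by oxidative stress, fell from 61.6 and 56.5 to 12.1 and 12.7 CPM, a log2 fold change of -2.25 ± 0.12 (adjusted p = 6.1e-20). EREG, which encodes the EGF receptor ligand epiregulin, fell from 13.3 and 9.97 to 2.98 and 2.44 CPM. CYP24A1 (chromosome 20, 54153449 to 54173973), the enzyme that inactivates vitamin D hormone, fell from 196 and 189 to 48.7 and 46.2 CPM (-2.02 ± 0.13; adjusted p = 3.13e-14).

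The non-canonical NF-kB subunit genes RELB and NFKB2 were also among the 12 largest falls. RELB read 12.2 and 10.5 CPM untreated and 2.66 and 3.05 CPM after Dex, and NFKB2 read 39.4 and 36.4 CPM untreated and 10.5 and 11.4 CPM after Dex. The cytokine signalling inhibitor SOCS2 fell from 31.3 and 39.8 to 10.2 and 8.67 CPM. PSD, an exchange factor for the GTPase ARF6, fell from 19.8 and 16.9 to 6.17 and 3.54 CPM. CYB5R2, a cytochrome b5 reductase gene, had equal untreated libraries at 38.8 and 38.8 CPM and read 11.7 and 10.0 CPM after Dex, while the protease inhibitor gene TFPI2 went from 18.9 and 15.0 to 3.93 and 6.11 CPM. Their untreated and Dex libraries did not overlap, which the rule for naming them required. Opposite-strand exons overlap DIO2, SOCS2, PSD and TFPI2, and a same-strand exon overlaps OSGIN1.

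**Figure D2:**
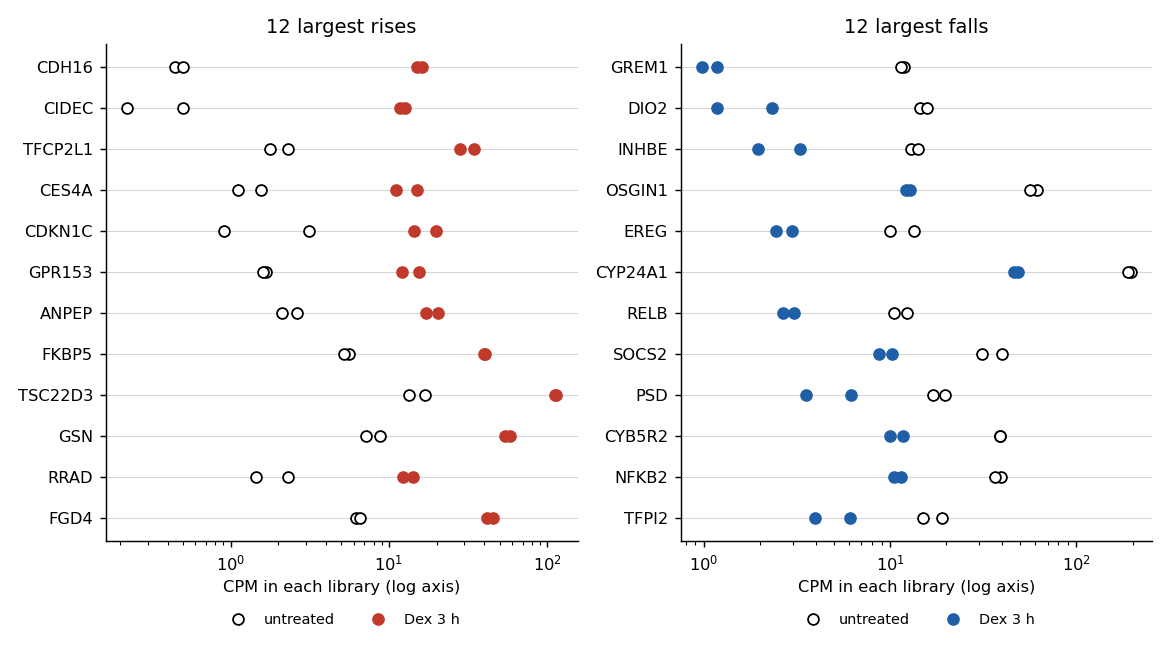
CPM in each of the 4 libraries (log axis) for the 12 protein-coding genes with the largest rises (left) and the 12 with the largest falls (right), open circles untreated and filled circles Dex 3 h. The pairs are apart for all 24 genes, as their choice required; GREM1 falls from 11.4 or more to 1.17 CPM or less.

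Among lncRNA genes at 5 CPM or more, AL121772.1 rose from 0.445 and 1.21 to 11.5 and 9.28 CPM, by 3.61 ± 0.32 on the log2 scale (adjusted p = 2.22e-12). AP001972.5 rose from 2.56 and 2.82 to 24.1 and 21.0 CPM. AL034417.4 lies antisense to ERRFI1, a feedback inhibitor of the EGF receptor that was called higher itself, and rose from 8.56 and 8.77 to 57.3 and 58.2 CPM. FLJ16779 fell from 16.1 and 14.2 to 1.70 and 1.22 CPM, and exons of NKAIN4 overlap it on the other strand. LUCAT1, a stress-responsive lncRNA, fell from 28.8 and 28.7 to 5.63 and 3.66 CPM, a log2 fold change of -2.61 ± 0.16 (adjusted p = 1.06e-17).

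A list of glucocorticoid and inflammatory signalling regulators, which holds the receptor, its chaperones and several inhibitors, was called higher in 12 of 22 tested members (54.5%) and lower in 1 (4.55%), with a median log2 fold change of 0.60 where the median of all genes was -0.01. For this list and those that follow, the share of all genes tested was 6.11% called higher and 4.41% called lower. Among protein-coding genes alone it was 7.42% and 5.15%. The lists were chosen with earlier results of these data known, so a larger share in a list is a description and no test. Beside CDKN1C, FKBP5 and TSC22D3, ZFP36 rose from 56.8 and 55.4 to 232 and 217 CPM (2.00 ± 0.11; adjusted p = 3.57e-19). Its product, tristetraprolin, binds AU-rich elements of cytokine mRNAs and speeds their decay. IRAK3, an inhibitor of Toll-like receptor signalling, rose from 0.556 and 0.403 to 2.66 and 4.27 CPM. The member called lower was the receptor's own gene, NR3C1, at 47.8 and 49.6 CPM untreated and 34.8 and 41.8 CPM after Dex, a log2 fold change of -0.35 ± 0.11 (adjusted p = 0.0365). That call was lost with total-count scaling, where 11 members were higher and none lower, with DESeq2, without the filter on low counts and with the 2 groups fitted alone. It was also lost without Dex replicate 1 or either untreated replicate (adjusted p up to 0.422). The chaperone gene HSP90AA1 read 106 and 76.7 CPM untreated and 64.4 and 77.4 CPM after Dex and was not called.

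Of 22 circadian clock genes, 4 were called higher (18.2%) and 2 lower (9.09%). PER1, a repressor of the clock loop, rose from 11.8 and 11.3 to 44.6 and 40.3 CPM (1.88 ± 0.15; adjusted p = 2.18e-14), and PER2 from 6.90 and 9.87 to 18.3 and 14.2 CPM, while same-strand exons overlap PER1. The other repressors split: CRY2 rose from 6.01 and 6.75 to 10.6 and 10.6 CPM, whereas CRY1 was called lower, at 8.12 and 10.2 CPM untreated and 5.53 and 4.40 CPM after Dex. BHLHE40, which represses clock and metabolic genes, fell from 91.4 and 92.7 to 51.0 and 44.8 CPM (-0.94 ± 0.12; adjusted p = 5.97e-08). The activators of the loop were not called: BMAL1 read 7.56 and 7.25 CPM untreated and 6.80 and 4.15 CPM after Dex, and CLOCK 18.4 and 19.6 CPM untreated and 23.7 and 19.5 CPM after Dex. The CRY1 call was lost under total-count scaling and DESeq2. CRY1 lost its call without untreated replicate 2 or Dex replicate 2 (adjusted p up to 0.185) and CRY2 without untreated replicate 1 (adjusted p = 0.103).

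Of 18 genes for Kruppel-like and C/EBP transcription factors, 7 were called higher (38.9%) and 4 lower (22.2%), a split of 6 and 0 under total-count scaling. CEBPB, a regulator of acute phase and adipogenic genes, rose from 35.0 and 32.1 to 112 and 124 CPM (1.81 ± 0.13; adjusted p = 2.01e-15), and CEBPD from 44.6 and 47.2 to 84.2 and 103 CPM. KLF9, known to be raised by glucocorticoids in many tissues, went from 8.34 and 6.55 to 17.6 and 23.8 CPM. KLF4, KLF6 and KLF13 were called higher as well, by 0.92, 0.82 and 0.84 on the log2 scale. The lower members were led by KLF2, at 35.5 and 35.4 CPM untreated and 18.2 and 21.7 CPM after Dex, with KLF11 and KLF10 at log2 fold changes of -0.74 and -0.67. KLF11 lost its call under DESeq2 and without untreated replicate 2 or either Dex replicate (adjusted p up to 0.238) and KLF10 without Dex replicate 1 (adjusted p = 0.0746).

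Epithelial and lung lineage genes were called in 9 of 23 cases, 4 higher (17.4%) and 5 lower (21.7%), and the list median of -0.15 became 0.04 under total-count scaling, where 2 members stayed called lower. The higher members were CDH16 and TFCP2L1, described above, the tight junction gene CLDN7, from 7.90 and 10.7 to 20.1 and 16.4 CPM, and SNAI2, a repressor of epithelial genes, from 0.111 and 0.202 to 1.38 and 1.22 CPM. Other claudins fell: CLDN2 read 7.45 and 6.45 CPM and then 2.44 and 2.32 CPM, and CLDN1 9.79 and 10.7 CPM and then 5.21 and 3.30 CPM. CLDN4 was called lower at -0.52 and FOXA1, a pioneer factor of endodermal tissues, at -0.54, and ELF3, an epithelial ETS factor, at -0.49. These 3 calls were lost under total-count scaling, that of CLDN4 also under DESeq2. SNAI2 lost its call without untreated replicate 1 (adjusted p = 0.0953), CLDN4 without Dex replicate 2 or either untreated replicate (adjusted p up to 0.519) and FOXA1 without untreated replicate 2 or Dex replicate 2 (adjusted p up to 0.157). FOXA2 and HNF4A were not called, at 0.18 and -0.25.

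Sodium transport genes were called higher in 6 of 19 cases (31.6%) and lower in none, also under total-count scaling. In absorbing epithelia, sodium enters the cell through the epithelial sodium channel, and SGK1 kinase keeps the channel at the surface. The gamma subunit gene of the channel, SCNN1G, had 0 counts in both untreated libraries and 9 and 10 counts in the Dex libraries. Against a floor of 3 counts per untreated library this is at least 3.42-fold higher (adjusted p = 0.00213). The alpha subunit gene SCNN1A rose from 31.8 and 39.3 to 51.3 and 53.2 CPM. SGK1 rose from 24.1 and 28.2 to 56.4 and 58.0 CPM (1.13 ± 0.12; adjusted p = 7.58e-10). NEDD4L, the ligase that removes the channel from the surface, was higher too, at 0.60. The water and glycerol channel gene AQP3 rose from 0.334 and 0.101 to 3.19 and 3.17 CPM (adjusted p = 7.32e-07). SCNN1G lost its call without either untreated replicate (adjusted p up to 0.0603), SCNN1A without untreated replicate 1 (adjusted p = 0.0909) and NEDD4L without untreated replicate 1 or Dex replicate 2 (adjusted p up to 0.3).

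Lipid and glucose genes were called higher in 8 of 27 cases (29.6%) and lower in none, with the same counts under total-count scaling. After CIDEC, the largest were PDK4, a kinase that shuts pyruvate out of oxidation, from 4.34 and 5.54 to 18.9 and 18.2 CPM (1.90 ± 0.18), and ANGPTL4, a secreted inhibitor of lipoprotein lipase, from 24.5 and 25.7 to 83.4 and 82.3 CPM (1.72 ± 0.12; adjusted p = 5.02e-16). G0S2, an inhibitor of adipose triglyceride lipase, went from 2.00 and 1.51 to 4.25 and 5.13 CPM. The insulin signalling adaptor gene IRS2 rose from 39.7 and 39.7 to 78.8 and 85.7 CPM. PLIN2 and FASN were not called, at 0.55 and 0.28. Acute phase and complement genes were called in 2 of 16 cases (12.5%), a share near the 10.5% of all genes: the fibrinogen chain gene FGA rose from 2.45 and 2.42 to 8.93 and 7.69 CPM and C3 from 1.11 and 1.41 to 3.51 and 3.79 CPM. FGB, the neighbouring fibrinogen chain gene, read 0.667 and 0.302 CPM untreated and 0.957 and 0.611 CPM after Dex and was not called. G0S2 lost its call without untreated replicate 2 (adjusted p = 0.0665) and C3 without untreated replicate 1 (adjusted p = 0.0607).

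All 4 tested metallothionein genes were called higher, under total-count scaling as well. Metallothioneins are small proteins that bind zinc and copper, encoded in a cluster on chromosome 16, and 7 of the 11 listed did not pass the filter on low counts. MT2A (chromosome 16, 56608199 to 56609497) rose from 13.1 and 10.9 to 42.8 and 34.2 CPM (1.69 ± 0.15; adjusted p = 6.22e-13), and MT1X from 12.9 and 14.2 to 33.1 and 32.2 CPM (1.27 ± 0.14). MT1F rose from 0.779 and 1.31 to 2.13 and 3.30 CPM. MT1A had 0 counts untreated and 7 and 5 after Dex, at least 2.13-fold higher against the floor of 3 counts. MT1A lost its call without Dex replicate 1 or either untreated replicate (adjusted p up to 0.114) and MT1F without untreated replicate 1 or Dex replicate 2 (adjusted p up to 0.267). The MT1F call was also lost under DESeq2 (adjusted p = 0.0664). These genes are near-identical copies, so reads may be split between them uncertainly.

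Inflammatory cytokines and mediators had a median log2 fold change of -0.70, with 7 of 18 called lower (38.9%) and 1 higher (5.56%). Of the 7 lower calls, 2 passed under total-count scaling. Of 31 listed, 13 did not pass the filter on low counts, IL6 and TNF among them. The monocyte chemoattractant gene CCL2 fell from 6.01 and 6.55 to 2.23 and 2.08 CPM (-1.54 ± 0.28; adjusted p = 5.36e-05), and the neutrophil attractant gene CXCL1 from 4.89 and 6.15 to 1.70 and 2.56 CPM (-1.39 ± 0.27). CXCL8 went from 1.33 and 1.41 to 0.319 and 0.366 CPM, and CXCL3 from 8.34 and 10.1 to 5.53 and 6.59 CPM. The interleukin gene IL18, the growth factor gene CSF1 and the gene for leukaemia inhibitory factor, LIF, were lower by log2 fold changes of -1.06, -0.90 and -0.95. CSF3 was called higher, at 4.34 and 2.72 CPM untreated and 7.12 and 5.98 CPM after Dex. CXCL2 and PTGS2, the cyclooxygenase gene, were not called, at -0.26 and 0.29. CXCL8 lost its call without 1 library, whichever of the 4 it was (adjusted p up to 0.132), CXCL3 without 1 library, whichever of the 4 it was (adjusted p up to 0.345) and CSF3 without untreated replicate 2 or either Dex replicate (adjusted p up to 0.366). DESeq2 ended these 3 calls too (adjusted p = 0.0943, 0.139 and 0.103), and that of CXCL3 was also lost without the filter on low counts and with the 2 groups fitted alone.

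Of 21 genes of the NF-kB pathway, 2 were called higher and 2 lower (9.52% each), also under total-count scaling. NFKBIA, which encodes the inhibitor that holds NF-kB in the cytoplasm, rose from 65.8 and 79.4 to 152 and 154 CPM (1.07 ± 0.11; adjusted p = 6.35e-11). BIRC3, a ubiquitin ligase of the same pathway, read 9.23 and 7.05 CPM untreated and 17.4 and 10.5 CPM after Dex, a call lost under DESeq2 and without untreated replicate 2 or Dex replicate 1 (adjusted p up to 0.464). RELB and NFKB2 fell as given above, while RELA and NFKB1, the canonical subunits, were not called, at -0.35 ± 0.12 and -0.21 ± 0.18 on the log2 scale.

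AP-1 subunits and immediate early factors had a median of -0.44, with 8 of 22 called lower (36.4%) and 3 higher (13.6%), and 5 and 2 under total-count scaling. JUN fell from 49.9 and 57.3 to 23.4 and 23.1 CPM (-1.21 ± 0.13; adjusted p = 5.01e-10) and FOSL1 from 27.6 and 26.3 to 11.2 and 10.6 CPM (-1.30 ± 0.15). The small MAF factor MAFK fell from 42.4 and 43.1 to 15.2 and 14.4 CPM (-1.53 ± 0.13; adjusted p = 2.64e-13). NR4A1, an orphan nuclear receptor, read 21.4 and 22.2 and then 8.82 and 7.57 CPM. IER2 and IER3 were lower by log2 fold changes of -0.84 and -0.81. The higher subunits were JUNB, from 67.5 and 70.5 to 114 and 119 CPM, FOSL2, from 73.2 and 76.8 to 124 and 112 CPM, and FOS, from 24.7 and 23.2 to 33.6 and 31.9 CPM. The FOS call was lost under total-count scaling and without Dex replicate 1 or either untreated replicate (adjusted p up to 0.148). MYC was not called, at -0.23 ± 0.11.

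Inhibitors of MAP kinase signalling also split, with 5 of 19 called higher (26.3%) and 3 lower (15.8%), 4 and 1 under total-count scaling. DUSP1, a phosphatase that inactivates p38 and JNK and a well-known glucocorticoid-induced gene, rose from 205 and 224 to 527 and 517 CPM (1.28 ± 0.11; adjusted p = 5.19e-13). RGS2, a regulator of G protein signalling, rose from 9.90 and 10.2 to 33.3 and 28.9 CPM (1.63 ± 0.15), and SPRY1, a Sprouty inhibitor of receptor tyrosine kinases, from 4.56 and 4.53 to 12.6 and 12.3 CPM (1.46 ± 0.20). The 3 members called lower were the phosphatase genes DUSP4, DUSP5 and DUSP8. DUSP4 fell from 177 and 201 to 108 and 119 CPM (-0.74 ± 0.10; adjusted p = 3.04e-07), and DUSP5 from 40.8 and 44.4 to 21.2 and 27.1 CPM, both calls lost under total-count scaling. DUSP8 fell from 4.12 and 4.43 to 0.744 and 1.47 CPM.

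In the EGF receptor group 2 of 20 were called higher (10.0%) and 3 lower (15.0%), and the median of -0.09 became 0.07 under total-count scaling. The ligand gene NRG1 fell from 52.5 and 50.9 to 28.1 and 30.3 CPM (-0.83 ± 0.11; adjusted p = 2.56e-07), a call lost under total-count scaling, and EREG fell as above. HBEGF, another ligand, was called higher at 0.68, a call lost under DESeq2 and without Dex replicate 2 or either untreated replicate (adjusted p up to 0.165). The receptor's inhibitor ERRFI1 rose from 24.9 and 29.1 to 54.4 and 54.2 CPM (1.01 ± 0.12). The receptor gene EGFR and the ligand gene AREG were not called, at 0.09 ± 0.13 and -0.33 ± 0.29.

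BMP and TGF-beta genes were called in 7 of 39 cases in each direction (17.9%), 3 higher and 4 lower under total-count scaling, where the median moved from -0.09 to 0.08. Below GREM1 and INHBE, the ligand gene TGFB2 fell from 12.9 and 14.7 to 4.15 and 4.27 CPM (-1.71 ± 0.21; adjusted p = 9.88e-09), and the signal transducer gene SMAD3 from 90.5 and 82.5 to 37.9 and 35.8 CPM (-1.23 ± 0.11; adjusted p = 5.53e-12). The activin subunit gene INHBB rose from 7.67 and 7.15 to 14.0 and 14.9 CPM, and the receptor genes TGFBR1 and TGFBR3 were called higher at 0.93 and 0.92. FSTL3, a binder of activin, read 57.4 and 59.4 and then 89.1 and 99.8 CPM. The inhibitory SMAD7 and the BMP target ID1 were called higher by 0.48 and 0.44, and both calls, with that of TGFBR1, were lost under total-count scaling. TGFBR1 lost its call without untreated replicate 2 or Dex replicate 1 (adjusted p up to 0.284), TGFBR3 without untreated replicate 2 (adjusted p = 0.0587), SMAD7 without untreated replicate 1 or Dex replicate 2 (adjusted p up to 0.342) and ID1 without untreated replicate 1 (adjusted p = 0.0535).

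Targets and regulators of the coactivators YAP and TAZ were called in 12 of 22 cases, 7 higher (31.8%) and 5 lower (22.7%), which became 3 and 0 under total-count scaling. ANKRD1, a YAP target, read 6.01 and 6.15 CPM untreated and 18.0 and 10.4 CPM after Dex, and its Dex libraries were the widest pair here. The coagulation initiator F3 (tissue factor) rose from 3.11 and 3.73 to 7.87 and 7.69 CPM (1.18 ± 0.26; adjusted p = 0.00115). WWTR1, which encodes TAZ, and YAP1 were called higher at 0.56 and 0.56, and lost the call under DESeq2 and total-count scaling. AMOTL1, NUAK2 and LIMD1, regulators of the pathway, were called lower at -0.92, -0.64 and -0.51. The widely used targets CCN1 and CCN2 were not called, at 0.16 ± 0.12 and 0.28 ± 0.17. ANKRD1 lost its call without Dex replicate 1 (adjusted p = 0.0531), WWTR1 without Dex replicate 2 or either untreated replicate (adjusted p up to 0.368), YAP1 without Dex replicate 2 or either untreated replicate (adjusted p up to 0.423), AMOTL1 without Dex replicate 2 (adjusted p = 0.0685) and LIMD1 without untreated replicate 1 or Dex replicate 2 (adjusted p up to 0.0842).

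Actin cytoskeleton genes controlled through the factor SRF were called higher in 8 of 27 cases (29.6%) and lower in 3 (11.1%), or 7 and 0 under total-count scaling. CDC42EP3, an effector of CDC42, rose from 26.2 and 28.5 to 83.4 and 91.1 CPM (1.67 ± 0.11; adjusted p = 2.49e-16). CNN2, a calponin gene, rose from 5.12 and 4.74 to 12.6 and 13.8 CPM, and the fibronectin receptor gene ITGA5 from 11.3 and 9.57 to 24.9 and 25.8 CPM. Cytoplasmic actin, ACTB, went from 127 and 128 to 219 and 273 CPM (0.95 ± 0.11), and vinculin, VCL, from 31.1 and 29.2 to 50.9 and 56.5 CPM. TAGLN2 and the tropomyosin gene TPM1 were called lower at -0.62 and -0.42, and both calls were lost under total-count scaling, that of TPM1 also under DESeq2. In the plasminogen and matrix group 3 of 21 were called higher (14.3%) and 2 lower (9.52%), with a median of -0.12 that became 0.05 under total-count scaling. The integrin gene ITGB4 rose from 29.3 and 26.8 to 71.8 and 61.2 CPM. The urokinase receptor gene PLAUR fell from 19.7 and 17.0 to 7.33 and 7.08 CPM (-1.34 ± 0.17; adjusted p = 2.47e-08). THBS1, thrombospondin, was called higher at 0.43 and the protease inhibitor gene SERPINE2 lower at -1.11, and both calls were lost under total-count scaling. TPM1 lost its call without untreated replicate 1 or either Dex replicate (adjusted p up to 0.215), THBS1 without untreated replicate 1 (adjusted p = 0.0767) and SERPINE2 without 1 library, whichever of the 4 it was (adjusted p up to 0.171).

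Of 37 cell cycle genes, 2 were called higher (5.41%) and 5 lower (13.5%). CDKN1A, the kinase inhibitor p21, rose from 10.3 and 11.1 to 31.5 and 30.6 CPM (1.53 ± 0.15; adjusted p = 3.62e-11), and PLK1 was called higher at 0.44. The 5 lower members were CDK6, MCM5 and MCM2 at -0.66, -0.63 and -0.62, CCND3 at -0.60 and MCM7 at -0.49. None of the 5 lower calls and not that of PLK1 passed under total-count scaling, where the list median moved from -0.09 to 0.09. CCND1 and MKI67 were not called, at 0.24 ± 0.11 and -0.29 ± 0.40. CDK6 lost its call without untreated replicate 2 or Dex replicate 1 (adjusted p up to 0.079), MCM2 without 1 library, whichever of the 4 it was (adjusted p up to 0.241) and PLK1 without 1 library, whichever of the 4 it was (adjusted p up to 0.213). DESeq2 ended the calls of MCM2 and PLK1, and PLK1 also lost its call without the filter on low counts.

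NRF2 target genes were called lower in 5 of 23 cases (21.7%) and higher in none. A549 carries a mutation in KEAP1 that keeps NRF2, the activator of antioxidant genes, constantly active. SLC7A11, the cystine importer gene, fell from 51.9 and 39.7 to 13.8 and 19.3 CPM (-1.47 ± 0.35; adjusted p = 0.0117). TXNRD1, thioredoxin reductase, fell from 274 and 233 to 105 and 102 CPM (-1.29 ± 0.27), and HMOX1, heme oxygenase, from 18.0 and 18.9 to 8.29 and 9.65 CPM (-1.05 ± 0.17; adjusted p = 5.33e-06). The glutamate-cysteine ligase genes GCLM and GCLC were called lower, GCLM from 26.4 and 22.0 to 9.99 and 14.3 CPM and GCLC from 43.0 and 34.8 to 20.9 and 26.7 CPM. Under total-count scaling only HMOX1 of these 5 passed and 1 other member was called higher. NFE2L2, which encodes NRF2, and NQO1 were not called, at -0.25 ± 0.13 and -0.33 ± 0.30. Both were called lower in the authors' deposited table, as given below. SLC7A11 lost its call without untreated replicate 1 or Dex replicate 1 (adjusted p up to 0.124), GCLM without untreated replicate 1 or Dex replicate 1 (adjusted p up to 0.114) and GCLC without untreated replicate 1 or Dex replicate 1 (adjusted p up to 0.0648).

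Genes of the transcription apparatus itself changed by less than 1 on the log2 scale wherever they were called. Of 25 factors of polymerase II pausing and elongation 3 were called (12.0%), and of 26 ribosome biogenesis genes 2 (7.69%), shares near or below the 10.5% of all genes. HEXIM1 and MEPCE, both parts of the complex that holds the kinase P-TEFb inactive, were called higher at 0.36 ± 0.11 and 0.37 ± 0.12, and CDK12, an elongation kinase, lower at -0.33 ± 0.11. The ribosome biogenesis genes POLR1A and RRP12 were called lower at -0.35 ± 0.11 and -0.47 ± 0.15, and the list median was -0.37. NCL and NPM1 were not called, at -0.94 ± 0.35 and -0.39 ± 0.32, but passed with the 2 groups fitted alone (adjusted p = 1.07e-05 and 0.0425). The arginine methyltransferase genes, targets of the inhibitors used elsewhere in the series, were called lower in 3 of 12 cases (25.0%): PRMT1 read 56.2 and 55.8 CPM untreated and 30.4 and 34.9 CPM after Dex (-0.78 ± 0.11; adjusted p = 6.26e-07), PRMT5 was at -0.74 ± 0.21 and PRMT3 at -0.46 ± 0.14. No member of these 3 lists was called under total-count scaling, where the median of the methyltransferases moved from -0.06 to 0.11. DESeq2 ended the calls named in these 3 lists except that of PRMT1. Those of MEPCE, CDK12, POLR1A, RRP12 and PRMT3 were also lost without the filter on low counts. With the 2 groups fitted alone, CDK12 and POLR1A lost theirs (adjusted p = 0.0675 and 0.0536). Leaving out 1 library ended the calls of HEXIM1, MEPCE, CDK12, POLR1A, RRP12, PRMT5 and PRMT3, with adjusted p up to 0.298, 0.31, 0.357, 0.258, 0.209, 0.154 and 0.224.

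**Figure D3:**
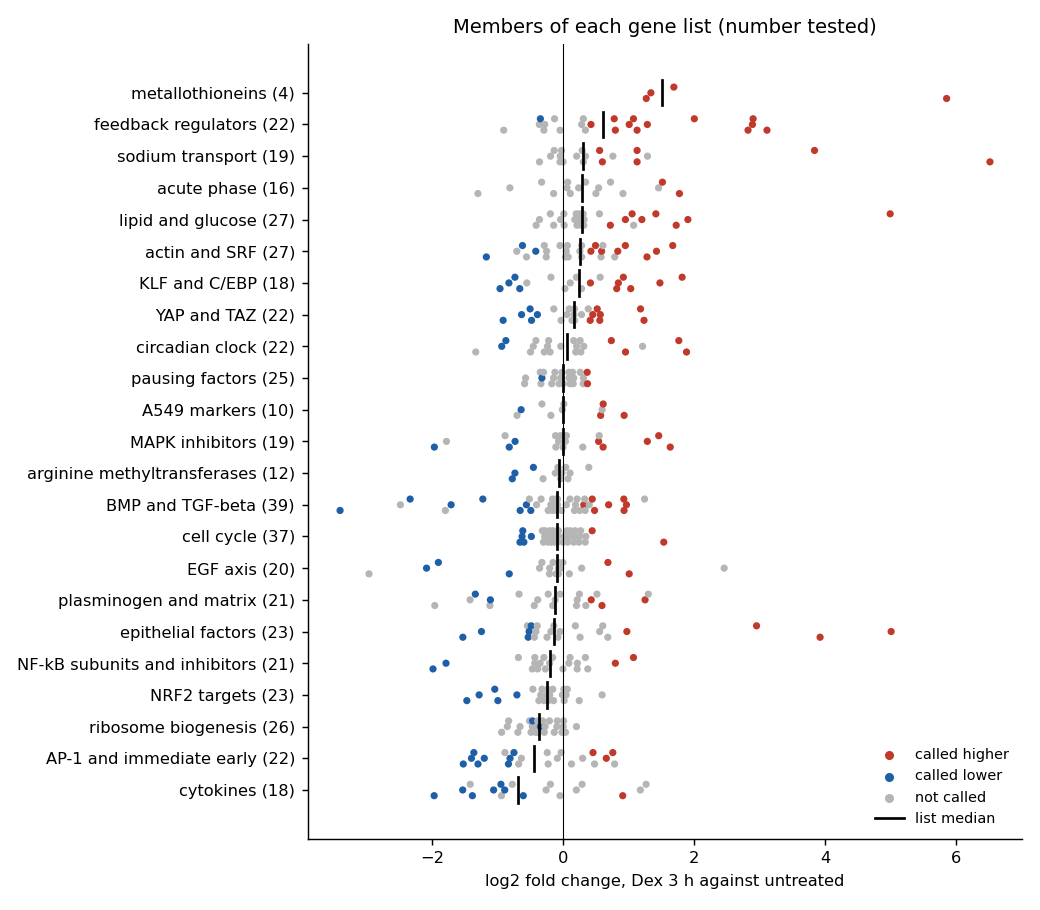
Log2 fold change after 3 h of Dex (horizontal) of each tested member of 23 gene lists, with the number tested in parentheses. Red points were called higher, blue lower, grey not called, and black bars mark list medians, from 1.51 for the metallothioneins to -0.70 for the cytokines; the points of SCNN1G and MT1A, at 0 counts untreated, are fitted values and no measure of size.

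The time at which these genes had changed differed. The Dex 15 min libraries share the untreated libraries with the 3 h comparison, so values are set side by side; a separate test of 3 h against 15 min called 10.8% of all genes. CDH16 read 0.691 and 0.300 CPM and TFCP2L1 3.36 and 2.90 CPM at 15 min, neither called against untreated, and rose between the times by 4.94 and 3.32 (adjusted p = 1.47e-17 and adjusted p = 8.23e-19). RRAD, at 1.78 and 1.60 CPM, and GPR153, at 2.37 and 1.70 CPM, were of the same kind. FKBP5 read 9.48 and 12.8 CPM at 15 min, above its untreated pair but not called (adjusted p = 0.12), and rose by 1.85 more by 3 h. Each value is 1 count per gene, and the genes differ in length. FKBP5 spans 35573585 to 35728583 on chromosome 6, and ZFP36 39406813 to 39409412 on chromosome 19. Whether length bears on the time of a change was not tested.

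A further set had most of its change by 15 min. PER1 read 47.9 and 51.2 CPM and ZFP36 196 and 197 CPM at 15 min, and the 3 h levels of neither differed from these past the threshold (-0.22 and 0.19 between the times, adjusted p = 0.293 and adjusted p = 0.277). MT2A, at 34.5 and 39.4 CPM, and NFKBIA, at 179.8 and 179 CPM, behaved likewise. KLF6 peaked: it read 194 and 189 CPM at 15 min against 109 and 102 CPM at 3 h, a log2 difference of -0.86 between the times (adjusted p = 2.54e-08). ERRFI1, at 73.0 and 64.6 CPM at 15 min, was also lower at 3 h (adjusted p = 0.0381). CIDEC, FGD4 and TSC22D3 were called at both times and rose further between them, FGD4 from 27.2 and 27.1 CPM at 15 min.

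Among the genes lower at 3 h, DUSP4 had been higher at 15 min, at 245 and 243 CPM against 177 and 201 untreated and 108 and 119 at 3 h, and was called at each step (adjusted p = 0.0494 at 15 min and adjusted p = 1.65e-11 between the times). NRG1 read 62.9 and 58.4 CPM at 15 min, which was not called. CXCL2, not called at 3 h, read 30.9 and 31.6 CPM at 15 min (adjusted p = 0.000145) and fell by 1.13 between the times (adjusted p = 3.43e-07). MYC and CCN2 had the same course, MYC at 117 and 136 CPM and CCN2 at 18.7 and 18.6 CPM at 15 min. IER2, BHLHE40 and TAGLN2 were already called lower at 15 min, at 17.9 and 20.3, 42.3 and 47.9 and 27.5 and 27.6 CPM. GREM1, CYB5R2 and OSGIN1, at 13.3 and 12.1, 38.8 and 35.8 and 53.1 and 49.4 CPM, were not called at 15 min.

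**Figure D4:**
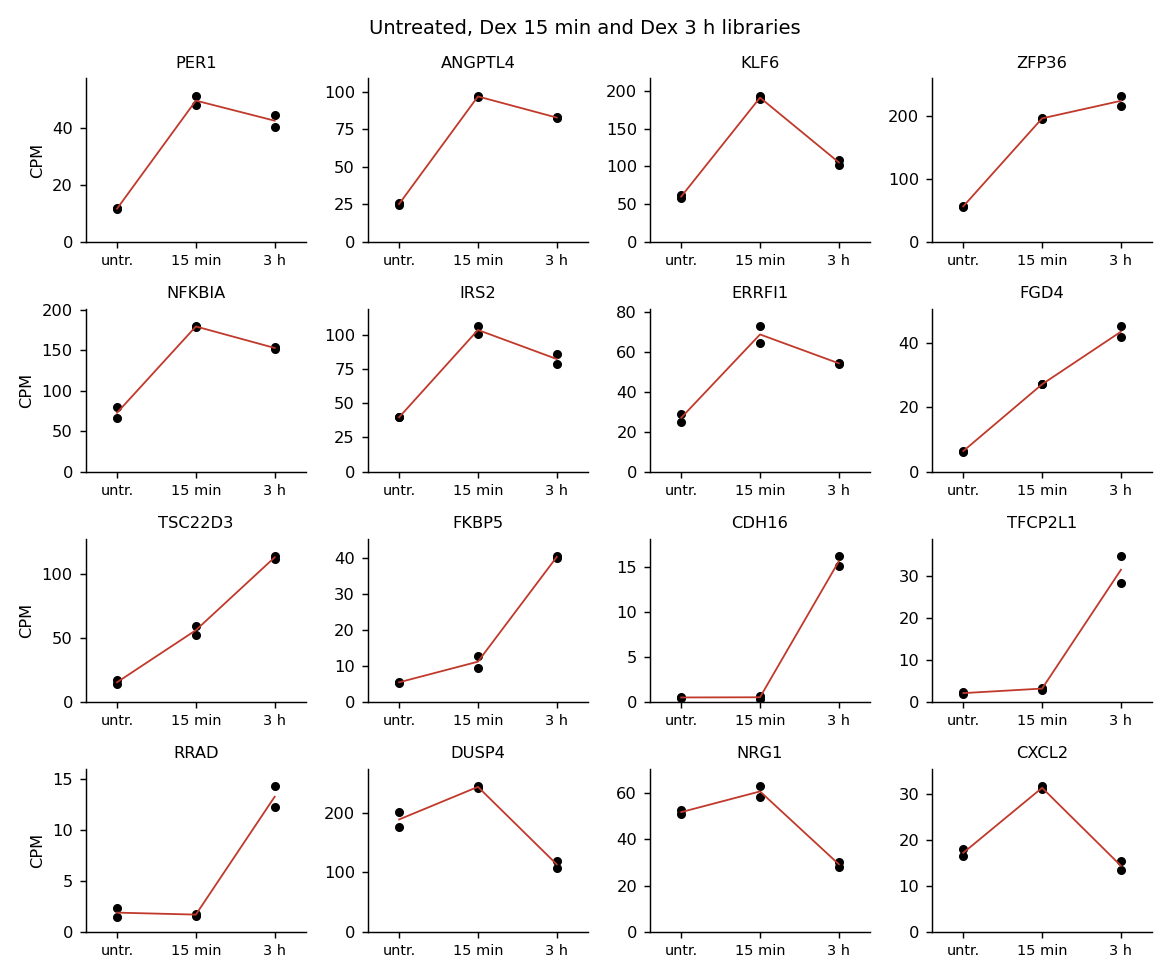
CPM (vertical, from 0) in the untreated, Dex 15 min and Dex 3 h libraries for 16 genes chosen after their values were seen; points are single libraries and lines join the means of 2. PER1, ANGPTL4 and NFKBIA are near or above their 3 h level by 15 min, CDH16, TFCP2L1 and RRAD are far below their 3 h level at 15 min, and DUSP4 and CXCL2 rise before they fall.

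The same contrast in cells held for 7 days in an inhibitor shares no library with the comparison above. It called 9.85% of genes after GSK591 and 11.1% after MS023, counting both directions. For all genes tested, neither the share called in both nor the shares with a positive or negative value were computed. The percentages of same sign and of calls in both that follow thus have no such share beside them. Of the 1400 genes higher without inhibitor, 1274 (91.0%) had a positive log2 fold change after GSK591 and 1279 (91.4%) after MS023, and 541 (38.6%) were called higher in both. For the 1010 lower genes, 936 (92.7%) and 911 (90.2%) had a negative one, and 339 (33.6%) were called lower in both. Calls in the opposite direction were 5 and 3 of the 1400 and none of the 1010. Total-count scaling cut the number called in the same direction in all 3 contrasts from 880 to 411. The median log2 fold change of the 1400 was 0.87 without inhibitor, 0.58 after GSK591 and 0.56 after MS023. The genes were chosen on the first of these values, and the difference between contrasts was not tested.

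By gene, TSC22D3 gave 2.89 without inhibitor, 2.95 after GSK591 and 2.87 after MS023, and GPR153 3.07, 3.15 and 3.07. CDH16 gave 5.01, 4.05 and 4.76. OSGIN1 fell alike, by log2 fold changes of -2.25, -2.23 and -2.65. RELB gave -1.99, -1.31 and -0.32, the last not called (adjusted p = 0.477), and CDKN1C 3.11, 1.59 and 1.23. CCL2 was not called after either inhibitor (-0.62 and -0.07), nor was KLF4 (0.09 and 0.07). NR3C1 was lower after both, at -0.62 (adjusted p = 0.000103) and -0.40 (adjusted p = 0.00752).

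**Figure D5:**
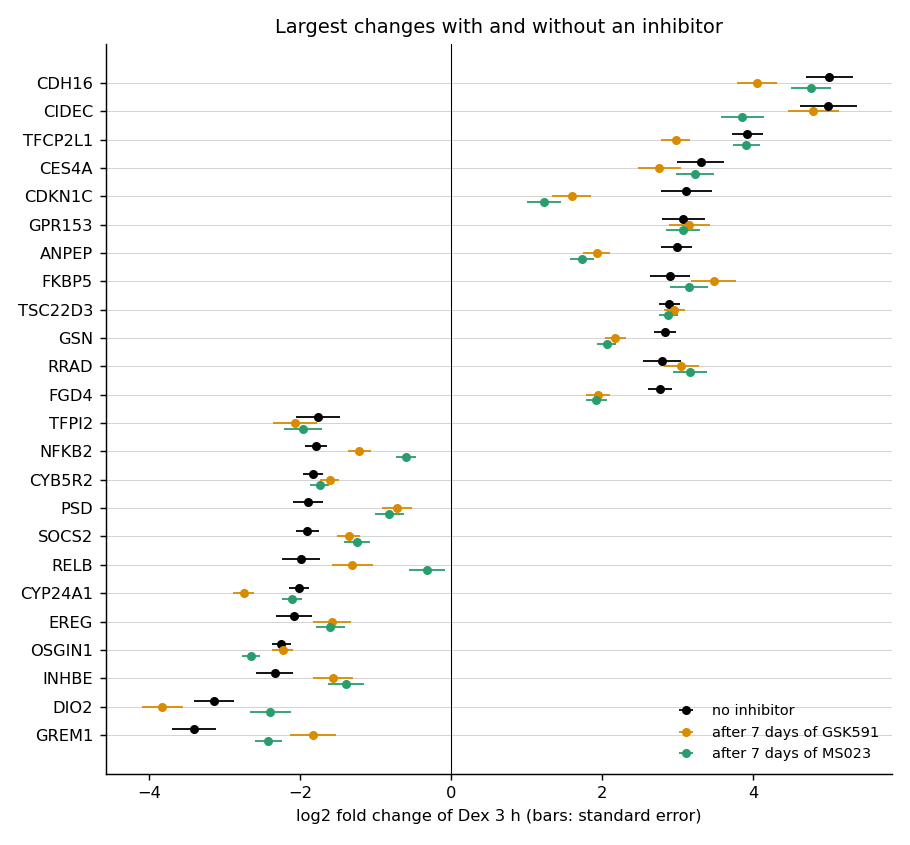
Log2 fold change of 3 h of Dex (horizontal, bars are standard errors) for the 24 protein-coding genes with the largest changes, without inhibitor (black), after 7 days of GSK591 (orange) and after 7 days of MS023 (green). All values keep their sign; RELB after MS023, at -0.32, is the nearest to 0.

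Some called protein-coding genes stood beside one another. Among 14953 pairs of adjacent tested protein-coding genes, 377 had both members called, and 318 of these (84.4%) moved the same way, where 1112 called genes were higher and 771 lower. Among the 313 pairs whose gene bodies do not overlap, 256 (81.8%) did. There were 53 runs of at least 3 adjacent called genes in 1 direction, 41 of them higher, and 10 of at least 4. Of the 14978 protein-coding genes tested, 7.42% were called higher and 5.15% lower. The numbers of pairs and runs that these shares alone would give were not computed. The metallothionein genes MT2A, MT1A, MT1F and MT1X formed one such run on chromosome 16, from 56608199 to 56684196. On chromosome 1, from 155002630 to 155069553, ZBTB7B, DCST2, DCST1, ADAM15 and EFNA4 were all higher, by 0.83 to 1.88 on the log2 scale. Exons of ADAM15 and DCST1-AS1 overlap DCST1, so DCST1 and ADAM15 may share reads. C3 lay in a run of higher genes on chromosome 19, from 6661253 to 6767588, with TNFSF14, GPR108, TRIP10 and SH2D3A. The gene bodies of C3 (to 6730562) and GPR108 (from 6729914) overlap, and reads there may be shared. TNFSF14, at 0 counts untreated, lost its call without Dex replicate 1 or either untreated replicate (adjusted p up to 0.13), and GPR108 under total-count scaling, DESeq2 and without untreated replicate 1 or either Dex replicate (adjusted p up to 0.489). Lower runs included the calcium channel gamma subunit genes CACNG7, CACNG8 and CACNG6 on chromosome 19, from 53909335 to 54012669, at -1.50, -1.57 and -1.32, and FOSL1 with CCDC85B and C11orf68 on chromosome 11.

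Promoter windows from 250 bases before to 50 bases after RefSeq gene starts (GRCh38.p14) were available for 13116 of the tested genes. The receptor's palindrome was searched as GNACA followed by 3 unspecified bases and then TGTNC. It reads the same on both strands. It was in 0.499% of windows of genes called higher (7 of 1402) and in 0.0957% of those called lower (1 of 1045). It was in 0.228% of windows of genes not called, 0.241% of those of all genes tested and 0.390% of all windows of the table, tested or not. None of the genes named by size holds it, so the genes shown were chosen after their values were seen. TRIM63, a muscle ubiquitin ligase and known glucocorticoid target, had 0 counts untreated and 4 and 6 after Dex, at least 1.82-fold higher against the floor (adjusted p = 0.0487). That call was lost under total-count scaling, without the filter on low counts and with 1 library left out, whichever of the 4 it was, with adjusted p up to 0.255. MAP3K6, a stress-activated kinase gene, rose from 12.3 and 12.7 to 24.1 and 24.3 CPM (0.95 ± 0.14; adjusted p = 1.51e-06), and the sulfotransferase gene CHST7 from 11.1 and 10.8 to 23.3 and 24.1 CPM (1.11 ± 0.14; adjusted p = 6.65e-08). EVA1A, which takes part in autophagy, held the single match among genes called lower and went from 1.67 and 2.92 to 1.17 and 0.611 CPM, a call lost under total-count scaling, under DESeq2, without the filter, with the 2 groups fitted alone and without untreated replicate 2 or Dex replicate 2 (adjusted p up to 0.416). The stretches show how the match differs among them, with capitals marking it, all upstream of the start and on the gene's strand.
TRIM63 (chr1:26067761-26067880, minus strand): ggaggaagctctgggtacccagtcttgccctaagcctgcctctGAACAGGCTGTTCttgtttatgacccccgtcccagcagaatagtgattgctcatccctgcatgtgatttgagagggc
MAP3K6 (chr1:27367048-27367167, minus strand): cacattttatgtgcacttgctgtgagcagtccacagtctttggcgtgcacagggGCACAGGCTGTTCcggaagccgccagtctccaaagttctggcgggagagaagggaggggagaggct
CHST7 (chrX:46573515-46573634, plus strand): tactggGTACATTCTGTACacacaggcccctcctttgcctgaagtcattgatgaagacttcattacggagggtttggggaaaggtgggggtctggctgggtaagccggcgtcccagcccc
EVA1A (chr2:75569720-75569839, minus strand): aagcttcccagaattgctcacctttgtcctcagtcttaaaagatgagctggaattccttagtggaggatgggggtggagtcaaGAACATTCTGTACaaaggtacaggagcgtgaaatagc

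The AP-1 site, searched as TGANTCA on both strands, was in 8.42% of windows of genes called lower and 10.1% of those lower by over 1 on the log2 scale. For genes called higher it was in 5.63%, for those higher by over 1 in 7.35% and for genes not called in 5.32%. For all genes tested it was in 5.52%, and for all windows of the table, tested or not, in 7.71%. The NF-kB site, searched as GGGAN followed by TTTCC, was in 0.861% of windows of lower genes (9 of 1045) and 0.642% of higher genes (9 of 1402). It was in 0.530% of windows of all genes tested and 0.558% of all windows of the table. TATAAA was in 8.13% and 7.46% of windows of genes called higher and lower, and 11.6% and 11.0% of those changed by over 1. It was in 6.79% of windows of genes not called, 6.93% of those of all genes tested and 11.5% of all windows of the table. A match describes letters and not binding. Stretches with an AP-1 match, in capitals, are given for the fallen genes OSGIN1 and PLAUR and the risen gene MT2A, since the letters occur in both directions of change.
OSGIN1 (chr16:83953086-83953205, plus strand): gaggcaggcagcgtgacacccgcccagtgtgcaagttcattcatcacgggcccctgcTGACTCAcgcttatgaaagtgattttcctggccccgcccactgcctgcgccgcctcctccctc
PLAUR (chr19:43670293-43670412, minus strand): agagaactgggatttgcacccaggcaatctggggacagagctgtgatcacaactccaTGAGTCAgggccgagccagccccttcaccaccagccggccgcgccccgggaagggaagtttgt
MT2A (chr16:56608423-56608542, plus strand): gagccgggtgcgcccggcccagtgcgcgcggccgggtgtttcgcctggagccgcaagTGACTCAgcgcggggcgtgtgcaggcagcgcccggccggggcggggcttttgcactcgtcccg

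The authors' deposited table for Dex 3 h shared 12992 genes carrying an adjusted p with the test reported here. Of these, 3170 were called in the authors' deposited table at 0.05 and 1710 here, with 1186 in both, which is 69.4% of the calls here and 37.4% of theirs. In 1179 of the 1186 the direction was the same and in 7 opposite. The authors' deposited table gave TSC22D3 a log2 fold change of 3.28, CDH16 7.53, GREM1 -3.05 and OSGIN1 -2.45, where the values here were 2.89, 5.01, -3.41 and -2.25. Among the 12 largest falls here, INHBE, PSD and CYB5R2 had log2 fold changes of -0.18, 0.11 and 0.03 in the authors' deposited table, against -2.34, -1.90 and -1.83 here. Their standard errors there were 0.42, 0.33 and 0.33, and their mean normalized counts 3.06, 17.1 and 8.64, where GREM1 had 228. Such means did not follow the counts used here. FGD4 had 1822 there and 56 to 426 counts in the 4 libraries here, and CLDN7 9.12 there and 71 to 189 here. Calls and values there may therefore rest on different gene counts from those here, which was not tested. PSD was not called there (adjusted p = 0.71). INHBE and CYB5R2 carried no adjusted p there, so they are outside the 12992 genes. For CXCL1 that DESeq2 table gave -1.04 ± 0.60 with an adjusted p of 0.0313, smaller than this ratio of value to standard error would give. Whether its log2 fold changes were shrunk toward 0, unlike those here, was not tested, so sizes may not be like for like. NR3C1 had -0.95 in the authors' deposited table (adjusted p = 8.24e-36), against -0.35 here. Of the uncalled genes named above, that table called NFE2L2 (-0.77), MYC (-0.64), CXCL2 (-0.76), NQO1 (-0.46), NCL (-0.64) and NPM1 (-0.29) lower. It called PLIN2 (1.21), FASN (0.27) and HNF4A (0.38) higher, where HNF4A was at -0.25 here. CCND1, CLOCK, FOXA2, FGB, EGFR, AREG, CCN2, MKI67, HSP90AA1, RELA and NFKB1 were called in neither.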

How the data were processed

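PRO-seq counts from A549 cells were used as the authors deposited them: whole-number read counts per gene, not normalized, made with featureCounts 2.0.1 of Subread on hg38, per the submitters' processing notes. The aligner, the counted feature type and the use of strand are not given in the sources used here. Groups and replicate numbers came from the sample labels. Counts of all 30 libraries in 15 groups were fitted together with edgeR 4.0.16 (R 4.3.3) by the quasi-likelihood test after TMM scaling and filterByExpr (minimum count 10), without covariates, with 15 residual degrees of freedom. P-values were Benjamini-Hochberg adjusted over all 22919 genes tested, a gene was called below 0.05, and the common biological coefficient of variation was 10.6%. The code was tested on simulated data. Alternatives were other scalings, no filter, DESeq2 1.42.0, the 2 groups alone, a replicate block, each library left out and no mitochondrial or rRNA genes. Gene models were GENCODE 29, and promoters RefSeq. From the authors' deposited DESeq2 table, the log2 fold changes and adjusted p-values were read as given, and its mean normalized signal per gene was not interpreted.

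The text names the 12 protein-coding and 3 lncRNA genes with the largest called rises and falls at a mean of 5 CPM or more with both Dex libraries beyond both untreated ones, the 3 largest rises and falls so defined in each of 24 gene lists, and FKBP5, TSC22D3, PER1 and NR3C1. Uncalled list members are given as examples, and 44 genes outside this rule, such as ZFP36, SCNN1G, CCL2, CXCL8 and JUN, were picked with their values in view. A few genes that the rule names are not reported here. The comparison and the lists were chosen with earlier results of these data known. With 2 libraries a group, n = 2 for every group value.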

Additional observations from a re-analysis of the deposited data

How the results depend on the processing

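With total counts as the only scaling, 1259 genes were called against 2410, of which 228 were lower, and 411 against 880 were called in the same direction after both inhibitors. DESeq2 called 1470 genes, 907 higher and 563 lower. With each library left out in turn, the calls ranged from 1355 to 1664, those higher from 808 to 1019, those lower from 509 to 645, and those shared with both inhibitor contrasts from 668 to 712. The lowest total came without untreated replicate 1, followed by 1429 without Dex replicate 2, 1436 without untreated replicate 2 and 1664 without Dex replicate 1. A fit of a group left with 1 library assumes that it varies like the other groups. Numbers of calls with the other scaling, filter and gene set choices, and with the 2 groups alone, were within 1.5 times the main values. A replicate block gave 2471 calls, among them RELA (adjusted p = 0.0491) and FASN (adjusted p = 0.0499), which were not called without it. The numbers do not pair the libraries: over 11021 genes the differences between replicates 1 and 2 in the 2 groups correlated at r = -0.0179. The contrast after both inhibitors could not be recomputed with the 2 groups alone. Of 181 named genes, 109 kept direction and call in all 11 alternatives that gave a value for them, and 0 changed direction. Total-count scaling ended the calls of 53 named genes, among them TXNRD1, DUSP4, NRG1 and PRMT1. MT1A and TRIM63, below 1 CPM, rest on fewer than 10 counts in each library. What the genes that lost a call have in common was not tested.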
